A study of Mus musculus with 12 samples.

Results

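The receptors described here are those through which nerves and hormones contract or relax the muscle of the bladder wall: the muscarinic receptors Chrm2 and Chrm3, the ATP receptor P2rx1, the tachykinin receptor Tacr2, the oxytocin receptor Oxtr, the endothelin receptors Ednra and Ednrb, the beta-3 adrenergic receptor Adrb3, the angiotensin receptor Agtr1a and the alpha-1A adrenergic receptor Adra1a. A probe set, the group of probes that reads 1 transcript on an Affymetrix array, was included where its only gene symbol was that of 1 of these 10 genes. That gave 10 probe sets of 6 genes, out of 45101 probe sets and 18193 genes with a probe set of 1 symbol. They were 2 for P2rx1, 3 for Ednrb, 2 for Oxtr and 1 each for Agtr1a, Chrm3 and Tacr2. Chrm2, Ednra, Adrb3 and Adra1a had no probe set of their own name in the table used here and were not analysed here.

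Each of 12 one-colour arrays measured the whole bladder of an FVB/N mouse, labelled male and taken at postnatal day 1. In 3 SMGA/EGFP arrays the mice carried a green fluorescent protein reporter of the smooth muscle gamma actin gene, Actg2. In 3 SMAA/EYFP arrays they carried a yellow fluorescent protein reporter of the smooth muscle alpha actin gene, Acta2. The other 6 arrays were wild type, the offspring of FVB/N females and control males. Each transgene is expressed from a promoter of smooth muscle, transgenic litters came from transgenic sires, and samples were not pooled. The labels do not name litters or transgenic lines, so the effects of genotype, sire and litter cannot be told apart, and p-values measure the spread between these arrays. The question behind the series was whether expressing the transgenes alters the expression profile of the bladder.

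The values are intensities in arbitrary units, with a median of 229.39 to 305.94 per array, and the number of arrays limits their precision. Between arrays the correlation of normalized log2 values, with controls left out, was 0.948 to 0.974 in 66 pairs. No 2 arrays had identical intensities. The database record numbers of the 12 arrays are consecutive. The first 6 hold all SMGA/EGFP arrays and wild type 1 to 3, and the last 6 hold all SMAA/EYFP arrays and wild type 4 to 6; the labels do not call these runs batches. The array labelled wild type 4 and male had an Xist intensity of 29604, against 80.1 to 250 on the others, and an Eif2s3y intensity of 26.7, against 3284 to 5096. The Y-linked genes Kdm5d and Uty were low there too, at 28.0 and 48.6, a female pattern that goes against the label. This array was kept in the main fits. It was the highest wild-type array at 1437347_at of Ednrb and at Agtr1a. Without it, SMAA/EYFP minus wild type at 1437347_at was -0.10 on the log2 scale, against -0.15 with it. All 12 of 12 smooth muscle markers, Acta2, Actg2 and Myh11 among them, were above background on every array, and their summed intensity ranged from 371522 to 458519 over the wild-type arrays, from 361612 to 473336 over SMGA/EGFP and from 359902 to 464631 over SMAA/EYFP. In whole bladder, fewer cells of a type and less RNA per cell cannot be told apart.

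Emptying of the bladder is driven by parasympathetic nerves that release acetylcholine and ATP onto the detrusor, the smooth muscle of the wall. Acetylcholine acts on M3 receptors (Chrm3), which signal through Gq proteins, phospholipase C and calcium, and on the more abundant M2 receptors (Chrm2), which signal through Gi proteins; ATP opens P2X1, a cation channel encoded by P2rx1. Tachykinins, oxytocin, endothelins and angiotensin II contract smooth muscle through other Gq-coupled receptors, and noradrenaline relaxes the detrusor through beta-3 receptors that raise cyclic AMP and contracts the outlet through alpha-1A receptors.

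Of the 10 genes, 7 had a promoter window in the RefSeq table for GRCm38.p6: Chrm2, Chrm3, P2rx1, Tacr2, Oxtr, Ednra and Ednrb. The sequence before P2rx1 is shown because P2rx1 was the only receptor of a nerve transmitter here that was above background on every array. It spans chr11:72998895-72999055 on the forward strand, 161 bases upstream of the gene's annotated span, with a GC content of 63.4%. Capitals mark its only match to a searched motif, AGATAA read on the opposite strand.
P2rx1 upstream: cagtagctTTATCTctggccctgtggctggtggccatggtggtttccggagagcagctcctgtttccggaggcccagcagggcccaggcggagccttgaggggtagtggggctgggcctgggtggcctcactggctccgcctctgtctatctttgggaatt
Both strands of the 250 bases before each start were searched for 4 motifs. The CArG box, which binds serum response factor, lay in none of the 7 windows, and 1.47% of the 32851 windows of that length in the table hold it. The TATA motif TATAAA lay in none either, and 12.4% of windows hold it. The GATA motif AGATAA was in the window of P2rx1 alone, and 9.99% of windows hold it. The GC box GGGCGG was in those of Chrm2, Tacr2 and Oxtr, and 32.7% of windows hold it. A match describes letters and not a site in use.

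Transcripts of 3 receptors, P2rx1, Ednrb and Agtr1a, were above background on all 12 arrays, and those of Chrm3, Tacr2 and Oxtr were near or below it. Background was set on each array as the 95th percentile of 83 probe sets for olfactory, vomeronasal and taste receptors. These genes were taken as not transcribed in bladder, which was not tested. This bound lay between 159.1 and 266.6 per array, and 49.1% to 59.5% of all probe sets exceeded it. The P2rx1 probe sets lay 33.6 to 79.7 times and 25.97 to 74.99 times above the bound of their array, the Ednrb probe sets 29.6 to 55.8 times, 4.13 to 9.36 times and 3.88 to 7.41 times, and the Agtr1a probe set 2.65 to 6.80 times. These 6 probe sets were above background on all 12 arrays, also with the bound at the 90th percentile. With the bound at the 99th percentile, 3 of them were: both of P2rx1 and 1437347_at of Ednrb. This higher bound lay between 251 and 2873 per array, so some of the 83 probe sets read bright on some arrays. The intensities of different probe sets cannot be ranked against each other, since probes differ in how well they bind.

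**Figure D1:**
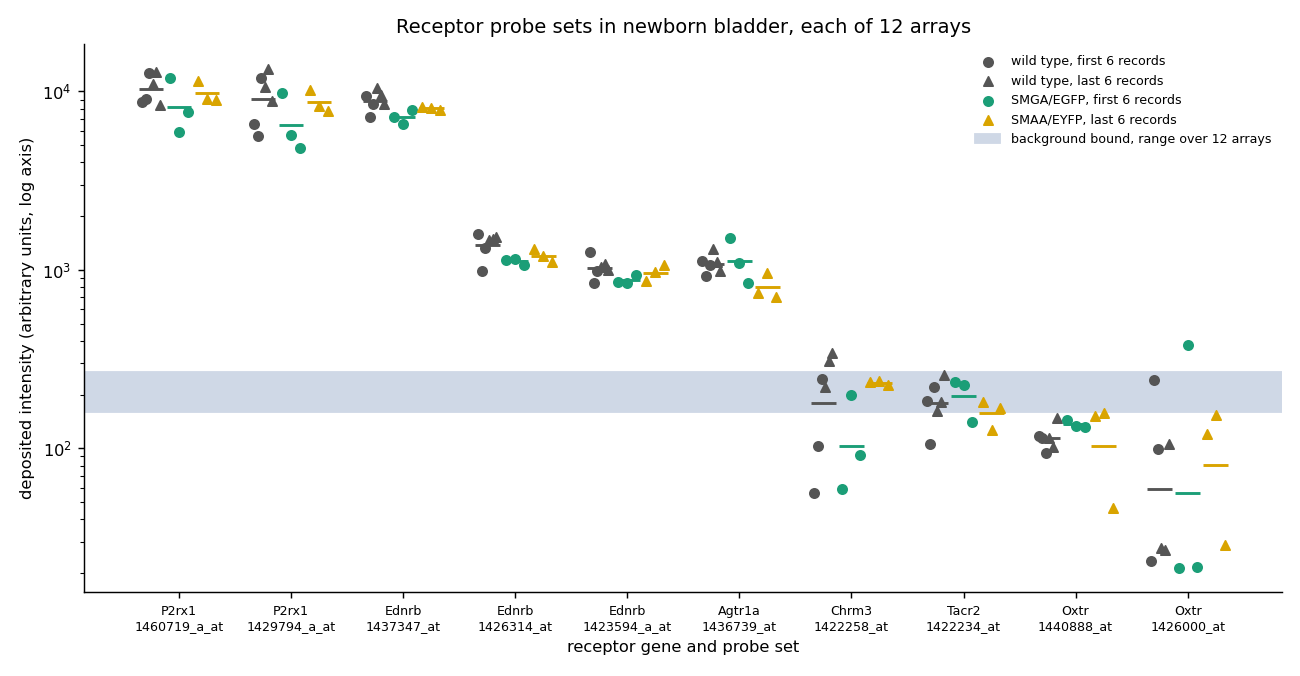
Deposited intensity (arbitrary units, log axis) of the 10 receptor probe sets on each of the 12 arrays, with a line at the mean of log2 values of each group and a band for the range of the background bound. The points of P2rx1, Ednrb and Agtr1a all lie above the band, and those of Chrm3, Tacr2 and Oxtr lie in or near it or below it.

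P2rx1, the ATP-gated channel of the detrusor, varied about as much within groups as between them. At probe set 1460719_a_at the SMGA/EGFP arrays read 11906, 5897 and 7692, the SMAA/EYFP arrays 11402, 9098 and 8958, and the wild-type arrays 8402 to 12836 with a median of 10041. SMGA/EGFP 2 and 3 were the lowest of the 12 arrays, while SMGA/EGFP 1 was among the wild-type arrays, so the groups overlapped. On the log2 scale the wild-type arrays averaged 13.34 ± 0.26 (SD, n = 6), those of SMGA/EGFP 13.00 ± 0.54 (SD, n = 3) and those of SMAA/EYFP 13.24 ± 0.18 (SD, n = 3). SMGA/EGFP minus wild type was -0.33 ± 0.20 (SE) on the log2 scale, a ratio of 0.793 with a 95% interval of 0.591 to 1.06 (limma, adjusted p = 0.758). Without SMGA/EGFP 1 this difference was -0.62, and without SMGA/EGFP 2 it was -0.09. SMAA/EYFP minus wild type was -0.09 ± 0.20 (SE; adjusted p = 0.994).

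The second P2rx1 probe set, 1429794_a_at, followed the first with r = 0.83 over the 12 arrays, a description of 2 probe sets on the same arrays. It read 9765, 5726 and 4812 in SMGA/EGFP, 10170, 8287 and 7790 in SMAA/EYFP, and 5624 to 13365 with a median of 9706 in wild type. SMGA/EGFP 3 was the lowest of the 12 arrays, followed by wild type 2, and the groups overlapped. SMGA/EGFP minus wild type was -0.48 ± 0.27 (SE, log2; adjusted p = 0.745), and -0.23 within the first 6 records. It was -0.80 without SMGA/EGFP 1, -0.26 without SMGA/EGFP 3 and -0.88 with arrays weighted by their quality.

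Chrm3, the receptor through which acetylcholine contracts the detrusor, was above background on 6 of 12 arrays. Its probe set read 59, 198 and 92 in SMGA/EGFP, 234, 237 and 226 in SMAA/EYFP, and 56, 103, 244, 219, 309 and 340 in wild type 1 to 6. The 2 transgenic groups did not overlap each other, which also holds for 14.5% of all probe sets tested, while the wild-type arrays covered the range of both. Of the first 6 records 2 arrays were above background, and of the last 6 records 4 were. Wild type 3, 5 and 6, SMGA/EGFP 2 and SMAA/EYFP 1 and 2 were the arrays above background. With readings on the other 6 arrays at background, no difference or fold between groups is given.

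Tacr2, the NK2 receptor for neurokinin A released from sensory nerve endings, was above background on 5 of 12 arrays: 3 wild type, 2 SMGA/EGFP and 0 SMAA/EYFP. It read 235, 225 and 140 in SMGA/EGFP, 182, 127 and 169 in SMAA/EYFP, and 106 to 257 with a median of 183 in wild type. All 3 groups overlapped, and no difference is given, since most readings were at background.

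Ednrb, the endothelin receptor that binds endothelin-1 and endothelin-3 alike, read lower on the SMGA/EGFP arrays, on average, than on the wild-type arrays at all 3 of its probe sets, and none of these differences passed the test. At 1437347_at the SMGA/EGFP arrays read 7175, 6567 and 7822, the SMAA/EYFP arrays 8204, 8071 and 7897, and the wild-type arrays 7176 to 10392 with a median of 8995. Wild type 2 was the lowest wild-type array at 7176, and it alone of the wild-type arrays lay within the SMGA/EGFP range. On the log2 scale the wild-type arrays averaged 13.12 ± 0.19 (SD, n = 6), those of SMGA/EGFP 12.82 ± 0.13 (SD, n = 3) and those of SMAA/EYFP 12.97 ± 0.02 (SD, n = 3). SMGA/EGFP minus wild type was -0.29 ± 0.11 (SE, log2), a ratio of 0.815 with a 95% interval of 0.694 to 0.958 (limma, adjusted p = 0.71 over 22518 probe sets). Within the first 6 records the difference was -0.21.

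The other Ednrb probe sets gave differences of similar size. At 1426314_at the arrays read 1131, 1148 and 1069 in SMGA/EGFP, 1301, 1191 and 1101 in SMAA/EYFP, and 985 to 1587 with a median of 1483 in wild type; SMGA/EGFP minus wild type was -0.33 ± 0.15 (SE, log2; adjusted p = 0.718). At 1423594_a_at they read 858, 845 and 932 in SMGA/EGFP, 860, 972 and 1059 in SMAA/EYFP, and 843 to 1256 with a median of 1019 in wild type; the difference was -0.27 ± 0.13 (SE, log2; adjusted p = 0.724). At both, wild type 2 was the lowest wild-type array and the groups overlapped. Pairs of the 3 probe sets correlated at 0.75 to 0.78 over the 12 arrays. They read 1 gene on the same arrays and are not replicates of the condition.

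Endothelial cells also express Ednrb, and endothelial markers lay lower in both transgenic groups. Of the 10 endothelial markers, all tested, 9 were lower in SMGA/EGFP (median log2 difference -0.21) and 10 in SMAA/EYFP (median -0.23), with 0 past the threshold. Their summed intensity ranged from 20184 to 25000 over the wild-type arrays, from 15639 to 23453 over SMGA/EGFP and from 17349 to 21653 over SMAA/EYFP. Urothelial markers lay the other way. Of 10, all tested, 9 were higher in SMGA/EGFP (median log2 difference 0.17) and 10 in SMAA/EYFP (median 0.26), with 0 past the threshold. The part of endothelial or urothelial cells in the Ednrb values was not tested. Melanocytes are another cell type with this receptor. Of 4 melanocyte markers, Tyrp1 and Mlana were above it on 0 arrays, Dct on 1 and Pmel on 12, with sums of 417 to 730.2 in wild type, 538 to 1107 in SMGA/EGFP and 352 to 696 in SMAA/EYFP.

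Agtr1a, the angiotensin II type 1a receptor, read lowest in SMAA/EYFP. The SMAA/EYFP arrays read 741, 963 and 708, the SMGA/EGFP arrays 1507, 1089 and 844, and the wild-type arrays 920 to 1311 with a median of 1083. SMAA/EYFP 1 and 3 were the lowest of the 12 arrays, and SMAA/EYFP 2 lay within the wild-type range. On the log2 scale the wild-type arrays averaged 10.10 ± 0.17 (SD, n = 6), those of SMGA/EGFP 10.13 ± 0.41 (SD, n = 3) and those of SMAA/EYFP 9.70 ± 0.21 (SD, n = 3). SMAA/EYFP minus wild type was -0.40 ± 0.17 (SE, log2), a ratio of 0.758 with a 95% interval of 0.585 to 0.982 (limma, adjusted p = 0.991), and -0.49 ± 0.16 (SE; adjusted p = 0.678) within the last 6 records. SMGA/EGFP minus wild type was 0.03 ± 0.17 (SE, log2; adjusted p = 0.98) and changed sign without SMGA/EGFP 1, to -0.19. SMGA/EGFP minus SMAA/EYFP was 0.43 ± 0.20 (SE, log2; adjusted p = 0.541), and 0.22 without SMGA/EGFP 1. All 7 of 7 fibroblast markers were lower on the SMAA/EYFP arrays than in wild type (median log2 difference -0.16, 0 past the threshold), against 49.2% of all probe sets. Their sums were 183367 to 208695 in wild type, 183923 to 228104 in SMGA/EGFP and 183864 to 195680 in SMAA/EYFP. All 10 endothelial markers (median -0.23) and all 6 skeletal muscle markers (median -0.31) were lower there too, while all 10 urothelial markers were higher (median 0.26). The part of these cell types in the Agtr1a values was not tested.

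Oxtr, the oxytocin receptor best known from uterus and mammary gland, had no probe set above background on more than 2 arrays. Probe set 1440888_at read 46 to 158 and was at or below background on all 12 arrays. Probe set 1426000_at read 21 to 377 and was above background on 2 arrays, SMGA/EGFP 2 at 377 and wild type 2 at 241. At these levels differences between groups could not be measured, and no fold is given.

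No receptor passed the threshold in any comparison. Of the 6 probe sets of P2rx1, Ednrb and Agtr1a that passed the filter on low values, 0 passed the adjusted threshold of 0.05 in SMGA/EGFP against wild type, where 0.0622% of all 22518 probe sets tested did. In SMAA/EYFP against wild type 0 of 6 passed, where 0% of all did, and in SMGA/EGFP against SMAA/EYFP 0 of 6, where 0.0799% did. The 4 probe sets below the filter, of Chrm3, Tacr2 and Oxtr, were read from a fit of all 45037 probe sets, in which 0 of 4 passed in these 3 comparisons, against 0.0289%, 0% and 0.0466% of all; most of their readings were at background, so this count says little about them. At an unadjusted p under 0.05 (limma) the counts were 2, 1 and 0 of 6, against 6.94%, 4.81% and 9.32% of all probe sets. No tool other than limma was run.

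By direction, the difference from wild type was below 0 for 5 of 6 in SMGA/EGFP (median log2 difference -0.31), against 52.9% of all probe sets and a median of -0.01. In SMAA/EYFP it was below 0 for 6 of 6 (median -0.12), against 49.2% of all probe sets and a median of 0.00. SMGA/EGFP minus SMAA/EYFP was below 0 for 5 of 6 (median -0.17), against 53.9% of all and a median of -0.02. This comparison also crosses the record runs, since all SMGA/EGFP arrays are in the first 6 records and all SMAA/EYFP arrays in the last 6. With the record run as a block the difference was 0.09 at 1429794_a_at of P2rx1 and 0.03, 0.11 and -0.12 for Ednrb. Both comparisons with wild type use the same wild-type arrays, and 5 of the 6 probe sets read only 2 genes. Of the 6, 1 probe set (1437347_at of Ednrb) had arrays that did not overlap between SMGA/EGFP and SMAA/EYFP, where 14.5% of all probe sets did not, and with Chrm3 it was 2 of all 10; in the comparisons with wild type 0 did not, against 2.73% and 3% of all.

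**Figure D2:**
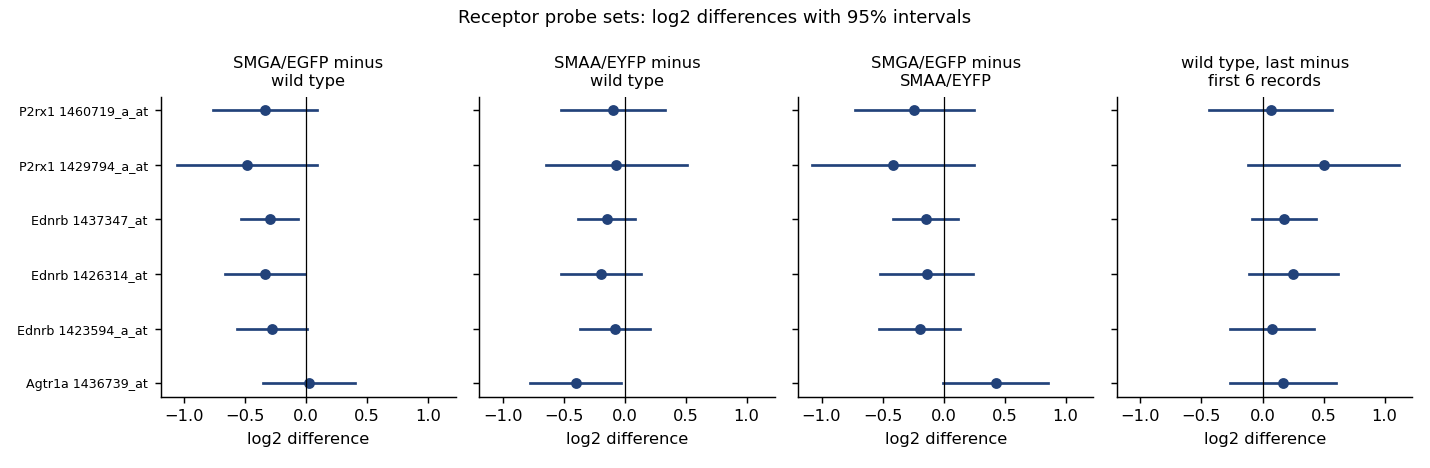
Log2 differences with 95% intervals for the 6 receptor probe sets of P2rx1, Ednrb and Agtr1a in 4 comparisons. Most intervals include 0, and those of Ednrb in SMGA/EGFP minus wild type lie mostly below it.

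The wild-type arrays were also compared with each other across the record runs. This bears on the comparisons with wild type and on that between the transgenic groups. Wild type 4 to 6 were higher than wild type 1 to 3 at 6 of 6 receptor probe sets, with a median log2 difference of 0.17, against a median of 0.02 over all probe sets, of which 45.6% were lower. None of the 6 passed the threshold (0% of all probe sets did), nor did any of the 4 below the filter in the fit without it (0.00222% of all did), 0 had an unadjusted p under 0.05 (limma; 8.16% of all), and 0 had arrays that did not overlap (13.5% of all). The widest of them was 1429794_a_at of P2rx1, at 0.50 ± 0.29 (SE, log2; adjusted p = 0.672), with 0.80 without wild type 3 and 0.29 without wild type 2. The smooth muscle markers were higher in wild type 4 to 6 in 12 of 12 cases, with a median of 0.20 and 0 past the threshold. Within their own record run, SMGA/EGFP minus wild type was -0.30 and -0.23 for P2rx1, -0.21, -0.20 and -0.23 for Ednrb and 0.11 for Agtr1a, and SMAA/EYFP minus wild type was -0.13 and -0.32 for P2rx1, -0.24, -0.33 and -0.12 for Ednrb and -0.49 for Agtr1a.

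The levels of the 3 receptors were set against those of 11 lists of cell type markers over the 12 arrays. Each receptor was read from its probe set of highest mean: 1460719_a_at of P2rx1, 1437347_at of Ednrb and 1436739_at of Agtr1a. The other probe sets of P2rx1 and Ednrb were not set against the lists. Of these 33 relations, 2 passed the threshold after Benjamini-Hochberg adjustment by Pearson's r, 1 of P2rx1 and 1 of Agtr1a, and 0 passed by Spearman's rho. The permutations shuffled all 12 arrays across groups and record runs. Their p-values therefore do not separate a relation between arrays from differences between groups or runs. P2rx1 and the endothelial markers had r = 0.78 (permutation p = 0.00254, adjusted 0.0419) and a Spearman's rho of 0.676 (permutation p = 0.0189, adjusted 0.11); r was 0.598 without the 2 arrays farthest from the median, and 0.789 and 0.805 within the first and last 6 records. Agtr1a and the fibroblast markers had r = 0.792 (permutation p = 0.00189, adjusted 0.0419) and a rho of 0.811 (permutation p = 0.00229, adjusted 0.0756); r was 0.793 without the 2 farthest arrays, and 0.752 and 0.917 within the record runs. The other relations did not pass. For P2rx1 and the pericyte markers r was 0.756 (permutation p = 0.00527, adjusted 0.058) and rho 0.76 (permutation p = 0.00525, adjusted 0.0866); r was 0.649 without the 2 farthest arrays, and 0.809 and 0.84 within the runs. For P2rx1 and the urothelial markers r was -0.622 (permutation p = 0.0302, adjusted 0.111) and rho -0.739 (permutation p = 0.00825, adjusted 0.0907); r was -0.404 without the 2 farthest arrays, and -0.865 and -0.494 within the runs. P2rx1 and the smooth muscle markers had r = 0.639 (permutation p = 0.0242, adjusted 0.105) and a rho of 0.543 (permutation p = 0.0709, adjusted 0.177). Without the 2 farthest arrays r was 0.75, and within the runs 0.72 and 0.412. Much the same r was found for P2rx1 with the fibroblast markers (0.636, permutation p = 0.0248, adjusted 0.105) and the macrophage markers (0.637, permutation p = 0.0254, adjusted 0.105). Ednrb and the fibroblast markers had r = 0.667 (permutation p = 0.0178, adjusted 0.105). Ednrb and the endothelial markers, its closest list, had r = 0.724 (permutation p = 0.00754, adjusted 0.0622) and a rho of 0.664 (permutation p = 0.0224, adjusted 0.11); r was 0.601 without the 2 farthest arrays, and 0.811 and 0.695 within the runs.

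**Figure D3:**
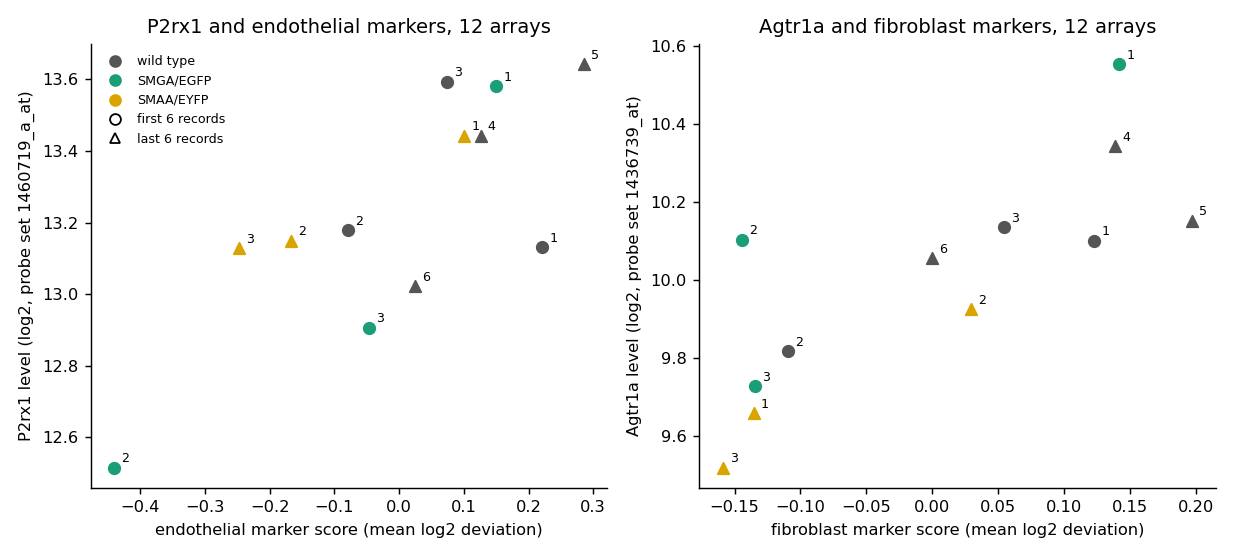
Log2 level of P2rx1 (1460719_a_at, left) against the mean log2 deviation of endothelial markers, and of Agtr1a (right) against that of fibroblast markers. These are the 2 relations of 33 that passed by Pearson's r. Each point is 1 of the 12 arrays, numbered by replicate; r was 0.78 and 0.792, and neither passed by Spearman's rho.

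Among 11729 genes compared over the 12 arrays, those with the pattern most like P2rx1 were Ppm1m (r = 0.925), Brd9 (0.918) and Rmdn1 (0.907). For Ednrb they were Macroh2a2 (r = 0.894), Tfcp2 (0.88) and Dip2a (0.879), and for Agtr1a Slc9a9 (r = 0.935), Usp3 (0.907) and Gimap6 (0.905). These are the highest of many correlations over the same arrays and are given as a description. Each gene was read from its probe set of highest mean.

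The ligands, relatives and downstream partners of these receptors were taken from 5 lists, and 0 of their genes passed the threshold in any of the 4 comparisons. Of the 21 other subtypes of the same families, 15 had a probe set, 6 were tested and 4 were above background on every array: P2rx4, P2rx7, Avpr1a and Agtr2. The ATP receptors P2rx2 and P2rx3, which serve sensory nerves, and Chrm4, Tacr1 and Adra1b were above background on 0 arrays. The 6 tested had a median log2 difference from wild type of 0.10 for SMGA/EGFP and 0.04 for SMAA/EYFP.

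Of 34 other contractile or relaxing receptors, 19 were tested, of which 11 were lower in SMGA/EGFP (median -0.10) and 13 in SMAA/EYFP (median -0.11). In SMGA/EGFP minus wild type the bradykinin receptor Bdkrb2 stood at -0.63 ± 0.23 (SE, log2; adjusted p = 0.708), the thromboxane receptor Tbxa2r at -0.49 ± 0.21 (SE; adjusted p = 0.718) and the parathyroid hormone receptor Pth1r at -0.44 ± 0.15 (SE; adjusted p = 0.698). In SMAA/EYFP minus wild type Ramp1, which forms the receptor for calcitonin gene-related peptide, stood at -0.58 ± 0.25 (SE, log2; adjusted p = 0.991), and the natriuretic peptide clearance receptor Npr3 at -0.42 ± 0.19 (SE; adjusted p = 0.991).

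Among 19 ligands and their processing enzymes, 10 were tested, with medians of -0.03 in SMGA/EGFP and -0.07 in SMAA/EYFP. Ece2, an enzyme that activates endothelins, stood at -0.36 ± 0.14 (SE, log2; adjusted p = 0.712) in SMGA/EGFP minus wild type and at -0.56 ± 0.16 (SE; adjusted p = 0.372) in SMGA/EGFP minus SMAA/EYFP. For Ece2, wild type 4 to 6 minus wild type 1 to 3 was 0.32 ± 0.15 (SE; limma, adjusted p = 0.611). Mme, the neprilysin that degrades tachykinins and other peptides, read 2361, 2435 and 2171 in SMGA/EGFP, 143, 560 and 517 in SMAA/EYFP, and 2775, 3848, 372, 141, 125 and 134 in wild type 1 to 6. It was high on 5 of the first 6 records, on both genotypes, and low on wild type 3 and the last 6. It was not above background on wild type 4 to 6 and SMAA/EYFP 1, so no difference is given.

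Of 40 G proteins and effectors, 36 were tested and all 36 were above background on every array. SMGA/EGFP minus wild type was below 0 for 25 of 36, with a median of -0.04, and in wild type 4 to 6 26 of 36 were higher than in wild type 1 to 3, with a median of 0.06. Plcb1, a phospholipase C that Gq activates, stood at -0.39 ± 0.23 (SE, log2; adjusted p = 0.758) in SMGA/EGFP minus wild type and at 0.67 ± 0.21 (SE; adjusted p = 0.443) between the wild-type runs.

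Of 13 genes of receptor desensitization, 10 were tested and all 10 were above background on every array, with medians of 0.01 in SMGA/EGFP and -0.12 in SMAA/EYFP. Rgs2, which shortens Gq signals, read 14600, 6895 and 10332 in SMGA/EGFP, 13326, 18127 and 12447 in SMAA/EYFP, and 10348, 10097, 18072, 28819, 30581 and 19304 in wild type 1 to 6. The 3 wild-type arrays of the last 6 records were the highest of all 12. SMGA/EGFP minus wild type was -0.81 ± 0.34 (SE, log2; adjusted p = 0.718), and wild type 4 to 6 minus wild type 1 to 3 was 1.04 ± 0.28 (SE; adjusted p = 0.441).

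Autonomic neurons, whose cell bodies lie in ganglia at the bladder base, were measured as a source of acetylcholine, ATP and noradrenaline, which some of these receptors bind. Of 12 markers 11 had a probe set and 5 were above background on every array, with sums of 9006 to 42728 in wild type, 18815 to 31747 in SMGA/EGFP and 8808 to 26068 in SMAA/EYFP. Of the 10 tested, 9 were lower in wild type 4 to 6 than in wild type 1 to 3, with a median log2 difference of -1.93 and 0 past the threshold. Their correlation with the level of P2rx1 was -0.524 (permutation p = 0.0771, adjusted 0.17), with a Spearman's rho of -0.536 (permutation p = 0.0751, adjusted 0.177); r was -0.463 without the 2 farthest arrays, and -0.536 and -0.571 within the runs. Of 6 mesothelial markers, from the outer lining, 3 were above background on every array. All 6 read lower on the SMGA/EGFP arrays, 3 of them past the threshold against wild type and 4 against SMAA/EYFP. The latter comparison crosses the record runs, and all 6 were higher in wild type 4 to 6 than in wild type 1 to 3 (median 0.79). Within the first 6 records their mean log2 deviation was -1.45 to -1.15 in SMGA/EGFP and -0.14 to 0.04 in wild type. A fit of those records alone gave 1 call over all 22518 tested, so at most 1 marker kept its call. The part of mesothelial cells in the receptor values was not tested.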

How the data were processed

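The authors deposited 1 linear intensity for each probe set and array. The submitters' processing notes name GCOS without a version; the summary algorithm and any filters are not given in the sources used here. Per the labels, RNA was amplified in 1 round. Probe sets were named through GEO's annotation of the platform, with 34945 probe sets of 1 symbol, 932 of several and 9160 not listed. RefSeq's gene table was used for names.

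From 45101 probe sets, 64 controls were left out. Values were taken as log2(intensity + 16) and quantile-normalized, and a probe set was tested if its mean exceeded the median mean (log2 8.02), which 22518 did. The tests used limma 3.58.1 under R 4.3.3 (lmFit, eBayes with trend, two-sided, all 12 arrays). P-values were adjusted by the Benjamini-Hochberg method over all probe sets tested, with a threshold of 0.05. Differences are on the log2(value + 16) scale, which understates those of dim probe sets. Chrm3, Tacr2 and Oxtr lay below the filter and were fitted without it, over 45037 probe sets. The wild-type runs were compared in a fit of 4 cells. Marker scores average the log2 deviation from each gene's mean over the listed genes that were tested. These were 1 of 4 melanocyte markers and 3 of 8 markers of Schwann and satellite glia. Summed intensities take every listed gene with a probe set. Relations were tested with 100000 permutations, two-sided, and were added after the data were seen.

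All receptors were named, each with every probe set, and from each list up to 4 genes per comparison with the smallest p; the values by array of Mme and Rgs2 were chosen after they were seen. A list gene was read from its probe set of highest mean. The receptors, lists and tests were chosen with earlier results of these data known. On simulated data for SMGA/EGFP against wild type with 22518 probe sets, 88 of 100 differences of log2 1 and 98 of 100 of log2 2 were recovered, with 10 false calls. The simulated arrays had no record runs, and the differences were placed in brighter probe sets. Differences as small as those of the tested receptor probe sets were not simulated, so their recovery is not known. Alternatives were other normalizations, pseudocounts, filters and eBayes options, array weights, record runs, and each array left out.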

Additional observations from a re-analysis of the deposited data

Results flagged for a closer look

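In 2 receptor probe sets, 1 of the 6 wild-type arrays stood apart from the other 5 by Dixon's ratio on normalized log2 levels. The ratio is the gap to the nearest array over the whole range, and its 95% critical value at 6 arrays is 0.625. At 1440888_at of Oxtr, wild type 6 was the highest with a ratio of 0.821, at log2 7.44 against 6.92 to 7.01 on the others. Its intensity of 148 was still below background. At 1426314_at of Ednrb, wild type 2 was the lowest with a ratio of 0.71, at log2 9.92 against 10.43 to 10.64 on the others. The deposited intensities, 985 against 1317 to 1587, are on another scale and do not give this ratio. Chance flags about 1 in 20 groups.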

How the results depend on the processing

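Over 627 receptor values in 28 settings 0 passed the threshold; the lowest limma adjusted p was 0.22 for SMGA/EGFP and 0.236 for SMAA/EYFP against wild type, 0.327 between the transgenic groups and 0.126 between the wild-type runs, each with array weights. Of the values, 15 changed sign and 18 moved by more than their standard error. With the record run as a block, SMGA/EGFP minus SMAA/EYFP was 0.09 at 1429794_a_at of P2rx1 and 0.03, 0.11 and -0.12 for Ednrb. The count of all probe sets past the threshold in SMGA/EGFP against wild type was 14, and became 5 with a filter at the 75th percentile, 8 with only the arrays compared and 1 within the first 6 records; with 1 array left out it was 6 to 20. In SMAA/EYFP against wild type it was 0, and 5 with arrays centred on their median or with array weights; with 1 array left out it was 0. In SMGA/EGFP against SMAA/EYFP it was 18, and became 10 with the filter at the 75th percentile and 2 with the record run as a block; with 1 array left out it was 4 (without SMAA/EYFP 2) to 21. Between the wild-type runs it was 0, and 1 with no filter or a filter at the 25th percentile and 175 with array weights; with 1 array left out it was 0 to 430 (without wild type 3). The receptor probe sets above background on all 12 arrays were 6, and 3 with the bound at the 99th percentile. The cause of these shifts was not tested. No paired analysis was possible because the labels give no replicate numbers shared between groups. Signal over background limits Chrm3, Tacr2 and Oxtr, for which no differences are given.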
